A study of Rattus norvegicus with 12 samples.

Results

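T cells lodged in the meninges of the spinal cord were compared with T cells drawn from the cerebrospinal fluid (CSF) that bathes the same membranes. The comparison holds 6 of the 12 RNA libraries of the series, 3 titled spinal cord meninges and 3 titled CSF, chosen by their titles. All cells were sorted CD4+ T cells that express GFP and recognise myelin basic protein (Tmbp cells), recovered from Lewis rats, labelled wild type, during experimental autoimmune encephalomyelitis. The other 6 libraries, 3 from blood and 3 from CNS parenchyma of the same kind of cell, were kept out of the test and used as a separate readout. The labels used here state no age, day of disease, number of rats or pooling. Where libraries of the same number are set against each other, p-values therefore reflect only how far the difference between compartments varies between numbers. Where the number is ignored, they reflect only how far libraries of a compartment vary. Part of either spread may be technical. The spread is also not measured on each gene alone. In the test of meninges against CSF it rested on 2 residual degrees of freedom of the gene and on 9.43 lent by a spread shared between genes.

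Experimental autoimmune encephalomyelitis is an inflammation of the central nervous system driven by T cells that recognise myelin. Such cells leave the blood through vessels of the leptomeninges, crawl and stop on cells of these membranes with the help of integrins and chemokine receptors, and can meet antigen there on resident macrophages. Cells that lose hold are carried off in the CSF, and CSF cells can attach again, so the compartments exchange cells. The comparison asks which transcripts set cells taken from the meninges apart from cells taken from the CSF. Attachment cannot be told apart here from other differences between a tissue and a fluid, recovery of the cells included. The readout of parenchyma against blood also sets a tissue against a fluid.

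The files give Ensembl gene identifiers without names, and the table supplied with the data pairs none of them with a name. No gene function, promoter or chromosome position is therefore given. The identity of the sorted cells could not be checked on T cell genes, and RNA of other cells in the sort, such as meningeal macrophages or stroma, could not be measured; its part in each result below was not tested. In sorted bulk samples, fewer cells of a kind and less RNA per cell cannot be told apart. By a fixed rule 4 identifiers are printed, and the remaining genes are described by counts, sizes and levels.

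Total gene counts ran from 14279851 to 22056664 in CSF and from 11277725 to 15596984 in meninges. A count of 0 in a single one of these libraries allows a level of up to 0.136 to 0.266 CPM (a gene's count after scaling every library to the same total). Such limits cover counting error only. Meninges replicate 3 had counts for 18299 genes, against 14525 to 15582 in the other 5 libraries. In meninges replicate 2, 61.4% of the entries in the file were listed as aligned to several places, against 37.4% to 43.9% in the other 5.

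The library numbers of the titles were taken to pair the samples, on correlations between libraries. Deviations from the compartment mean, in log2 CPM over 11026 genes, correlated at 0.38, 0.49 and 0.30 between meninges and CSF libraries numbered 1, 2 and 3. Between libraries of different numbers the correlations ran from -0.43 to 0.17, and each library correlated best with the one of its own number. Deviations from a mean cancel over its 3 libraries, so higher correlations within numbers by themselves lower those between numbers. The root mean squared difference between a meninges and a CSF library was 0.35 to 0.42 log2 units for the 3 pairs of the same number and 0.36 to 0.51 for the 6 pairs of different numbers. Within a compartment it was 0.24 to 0.37. By this measure meninges replicate 2 lay nearer to CSF replicates 1 and 3, at 0.416 and 0.405, than to CSF replicate 2, at 0.421. CSF replicate 1 lay nearer to meninges replicate 3, at 0.361, than to meninges replicate 1, at 0.369. What a number stands for is not stated in the labels. In the fit described next, 1117 genes differed by number (edgeR, adjusted p under 0.05), and for 940 of them the libraries numbered 2 lay farthest from the middle.

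A minority of genes, 12.5% of those tested, separated meningeal from CSF T cells, and the large differences ran almost all one way. With the number as a block, 735 genes were higher in meninges, 6.67% of the 11026 tested, and 643 were lower, 5.83% (edgeR quasi-likelihood test, adjusted p under 0.05). More than 2-fold, 175 genes were higher, 1.59% of those tested, and 9 were lower, 0.0816%. More than 4-fold, 43 genes were higher and 0 were lower. The median fold was 1.40 among genes higher and 1.24 among genes lower.

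**Figure D1:**
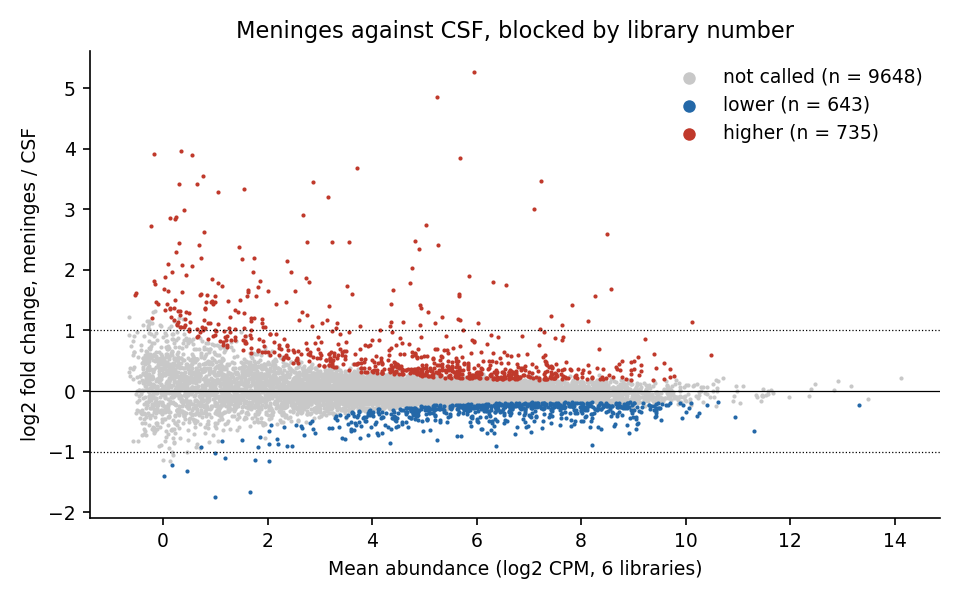
Each point is 1 of 11026 genes, with its mean abundance in the 6 libraries (log2 CPM) on the horizontal axis and its log2 fold change of meninges over CSF on the vertical axis; dotted lines mark 2-fold. The 735 genes called higher (red) spread far above the upper line, while the 643 called lower (blue) lie mostly within 2-fold.

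Most genes called lower differed by little. Of the 643, 576 differed by up to 1.5-fold, which left 67 beyond it. Among the 735 genes higher, 419 differed by up to 1.5-fold, 141 by 1.5-fold to 2-fold, 132 by 2-fold to 4-fold, 28 by 4-fold to 8-fold and 15 by more than 8-fold. Asking the test itself for a change beyond 1.5-fold left 119 genes higher and 3 lower.

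**Figure D2:**
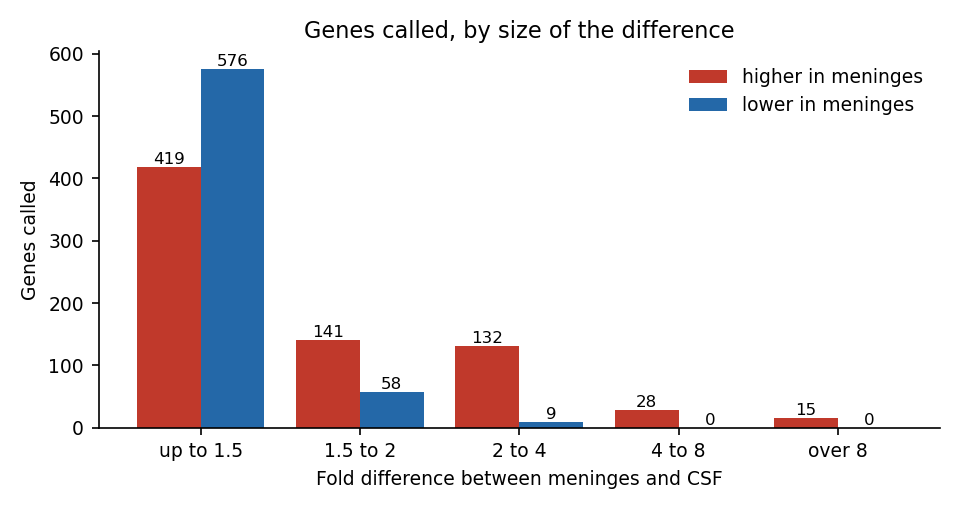
Bars give the number of genes called higher (red) and lower (blue) in meninges for each class of fold difference between meninges and CSF. Genes lower outnumber genes higher in the smallest class, 576 against 419, and beyond 4-fold only genes higher are found, 28 and 15.

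How many genes were called depended on the block and on the pair. Without the block 169 genes were higher, 1.53% of those tested, and 38 lower, 0.345%, all of them also called with it. Genes higher were 53.3% of the calls with the block and 81.6% without it. Scaled by library size alone, 880 genes were higher and 486 lower, so that 64.4% of calls were higher. Leaving out both libraries numbered 1 gave 487 higher and 359 lower, leaving out those numbered 2 gave 1251 and 1246, and leaving out those numbered 3 gave 624 and 464. In these fits 1 residual degree of freedom remained, so that the spread came almost wholly from a value shared between genes. With every library thinned to 11277725 counts, the total of the smallest, 673 genes were higher and 592 lower.

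A pair that took no part in choosing the genes showed the same direction for most of them. Genes called higher on pairs 2 and 3 were higher in pair 1 in 458 of 473 cases, 96.8%, with a median difference of 0.59 log2 units. Those called lower were lower there in 351 of 358 cases, 98.0%. Over all genes of that fit 48.6% were higher in pair 1. In pair 3 the shares were 97.1% of 611 genes higher and 95.0% of 464 lower, beside 50.2% of all genes higher. Pair 2 gave lower shares, 82.3% of 1232 genes higher and 83.2% of 1245 lower, beside 50.1% of all genes higher. These shares are not on a like footing, because the fit without pair 2 called the most genes, 1251 higher and 1246 lower. The median difference of the genes higher was 0.25 log2 units in pair 2 and 0.45 in pair 3.

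The genes with large rises were mostly of low abundance. Genes were split into 4 abundance classes of equal size by mean CPM, which is not corrected for transcript length. The lowest class, 0.514 to 8.41 CPM, held 122 of the 175 genes more than 2-fold higher and all 9 more than 2-fold lower. The next class held 25 of the 175, the third 16 and the highest, from 85.2 CPM, 12. Genes called higher were spread over the classes, with 205, 181, 171 and 178 from the lowest to the highest. Genes called lower were concentrated among abundant genes, with 30, 129, 160 and 324, or 11.8% of all genes in the highest class. Small differences can be called only where counts are high, so these numbers also carry the depth behind each gene.

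In CSF most of the 175 genes stood at low levels. In the mean of the CSF libraries 68 of them were under 1 CPM, and the highest reached 670 CPM. Their median level was 1.13 to 1.59 CPM in the 3 CSF libraries and 3.99 to 4.57 CPM in the 3 meninges libraries. All meninges libraries lay above all CSF libraries for 153 of the 175, beside 13.1% of all genes tested. All meninges libraries lay below all CSF libraries for 429 of the 643 genes lower, beside 8.56% of all genes tested. Since the test uses the same values, these shares only describe the genes chosen. Meninges replicate 3 was the highest of the 3 meninges libraries for 33 of the 175, 18.9%, beside 32.3% of all genes tested. Replicate 1 was the highest for 79, 45.1%, beside 34.5%, and replicate 2 for 63, 36%, beside 33.1%. The median rise was 1.39 log2 units in pair 1, 1.59 in pair 2 and 1.17 in pair 3.

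The 15 genes more than 8-fold higher reached mean levels of 1.70 to 284 CPM in meninges, from 0.0920 to 26.1 CPM in CSF. Of these, 7 reached at least 10 CPM in meninges. The smallest summed count of the 15 in the 3 CSF libraries was 6, so that the largest folds of the weakest genes rest on few reads. For 1 of them a single meninges library held as much as 73.6% of the summed CPM of the 3. The 28 genes between 4-fold and 8-fold had a median of 1.04 CPM in CSF and 5.02 CPM in meninges.

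Together the 175 accounted for 0.258% ± 0.0293 (SD, n = 3) of all gene counts in CSF and 0.781% ± 0.125 in meninges. The 643 genes lower took 13.3% ± 0.843 in CSF and 10.9% ± 0.685 in meninges. These shares describe genes chosen on the same libraries and carry no test.

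ENSRNOG00000046667 had the largest fitted rise of all genes called. It stood at 3.08, 2.66 and 4.20 CPM in CSF replicates 1 to 3 and at 140, 112 and 129 CPM in meninges replicates 1 to 3. The lowest meninges library held 1400 counts and the highest CSF library 68, and the groups were far from overlapping. This is a 38.4-fold rise, 5.26 on the log2 scale (SE 0.10, adjusted p = 7.47e-11, edgeR), the lowest p-value of all genes tested. Within pairs 1, 2 and 3 the log2 differences were 5.42, 5.31 and 4.87. The gene passed the threshold under all 17 alternatives that gave it a value, with log2 fold changes of 5.13 to 5.43 and adjusted p of at most 2.63e-05.

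Outside the comparison ENSRNOG00000046667 was low in blood and high in parenchyma. Blood libraries held 8.68, 6.31 and 7.84 CPM and parenchyma libraries 203, 127 and 116 CPM. The log2 fold change of parenchyma over blood was 4.35 (SE 0.23, adjusted p = 8.85e-07, edgeR). CSF thus had the lowest mean of the 4 compartments, 3.31 ± 0.798 CPM (SD, n = 3), and all 3 CSF libraries lay below all 3 blood libraries. Meninges, at 127 ± 13.8 CPM, and parenchyma, at 149 ± 47.3 CPM, overlapped.

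ENSRNOG00000008015 had the same pattern. Its level was 2.95, 0.984 and 4.41 CPM in CSF and 78.3, 83.4 and 71.4 CPM in meninges, replicates 1 to 3 in order. CSF replicate 2 was the lowest, on 20 counts, and all meninges libraries lay well above all CSF libraries. This is a 29.0-fold rise, 4.86 on the log2 scale (SE 0.23, adjusted p = 4.97e-07, edgeR). Within the pairs the log2 differences were 4.65, 6.21 and 3.95, the largest in the pair with the low CSF library. Over 17 alternatives the log2 fold change ran from 4.38 to 5.32 and the adjusted p was at most 0.00270.

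Blood libraries held 8.39, 3.15 and 9.80 CPM of ENSRNOG00000008015 and parenchyma libraries 86.8, 83.9 and 71.4 CPM. The log2 fold change of parenchyma over blood was 3.59 (SE 0.28, adjusted p = 1.01e-05, edgeR). Blood and CSF libraries overlapped, and so did meninges and parenchyma libraries. Among blood and CSF libraries alike, the one numbered 2 was the lowest.

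The falls were far smaller. ENSRNOG00000001216 had the largest among genes called with at least 10 CPM in CSF and the same direction in all 3 pairs; the 9 genes that fell more than 2-fold did not reach that level. It stood at 80.1, 161 and 77.0 CPM in CSF and at 44.8, 81.6 and 44.5 CPM in meninges, replicates 1 to 3 in order. The groups overlapped, because meninges replicate 2 lay above CSF replicates 1 and 3, but within each number the meninges library was lower. Meninges against CSF gave a log2 fold change of -0.90 (SE 0.06, adjusted p = 4.29e-06, edgeR), and within the pairs it was -0.86 in pair 1, -0.82 in pair 3 and somewhat larger in pair 2. The call rests on the block: without it the log2 fold change was -0.93 with an adjusted p of 0.219, and over 17 alternatives the adjusted p ran from 8.62e-36 to 0.585. The lowest value came from the fit without the filter on low counts.

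The library numbered 2 held the highest level of ENSRNOG00000001216 in blood and parenchyma too. Blood libraries held 66.1, 94.8 and 54.3 CPM and parenchyma libraries 35.3, 58.7 and 36.9 CPM. Parenchyma against blood gave -0.66 on the log2 scale (SE 0.24, adjusted p = 0.0448, edgeR). That call was lost without blood replicate 1 or 2 or parenchyma replicate 1 or 3, with adjusted p of 0.0643, 0.141, 0.174 and 0.146. With the block the adjusted p was 3.12e-05.

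ENSRNOG00000008194, the other fall printed, had the next largest among genes called with at least 10 CPM in CSF. It stood at 317, 452 and 365 CPM in CSF and at 172, 245 and 208 CPM in meninges, replicates 1 to 3 in order. All meninges libraries lay below all CSF libraries. Meninges against CSF gave a log2 fold change of -0.88 (SE 0.05, adjusted p = 1.66e-06, edgeR), and within the pairs it was -0.90, -0.91 and -0.84. Without the block the adjusted p was 0.0324. In that fit the call was lost when CSF replicate 3 or meninges replicate 1 or 3 was left out, with adjusted p of 0.0793, 0.133 and 0.133. In the fit of all 12 libraries without the block the adjusted p was 0.188, the highest over 17 alternatives, and the lowest was 2.88e-44.

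Blood libraries held 60.8, 182 and 68.9 CPM of ENSRNOG00000008194 and parenchyma libraries 182, 225 and 214 CPM. Blood replicate 2 stood close to the lowest parenchyma library, and the other 2 blood libraries were far below. The log2 fold change of parenchyma over blood was 1.05 (SE 0.36, adjusted p = 0.0353, edgeR), in the direction opposite to that of meninges against CSF. It had adjusted p of 0.0745 to 0.103 when blood replicate 1 or 3 or any parenchyma library was left out, 1.15e-06 without blood replicate 2 and 0.000105 with the block. CSF had the highest mean of the 4 compartments, 378 ± 68.7 CPM (SD, n = 3), with all 3 libraries above every library of the other compartments.

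**Figure D3:**
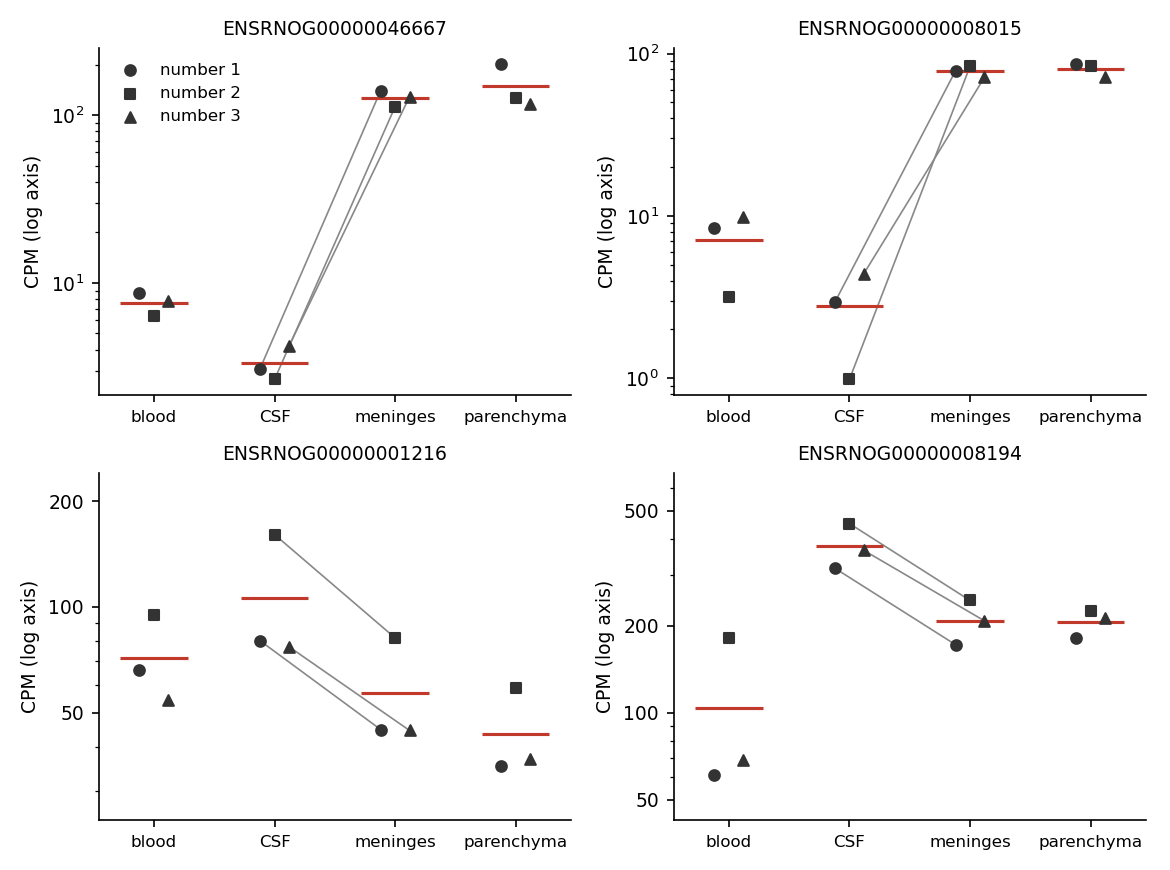
Each panel gives 1 gene's level (CPM, log axis) in the 12 libraries by compartment; the marker shape gives the library number, red bars the mean of 3 libraries, and grey lines join the CSF and meninges libraries of 1 number. The upper genes stand at 0.984 to 9.80 CPM in blood and CSF and at 71.4 to 203 CPM in meninges and parenchyma, while the lower genes fall within each pair from CSF to meninges.

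The genes that set meninges apart from CSF were then read in blood and parenchyma libraries, none of which had taken part in choosing them. Over all genes tested between parenchyma and blood, 24.6% were higher in parenchyma and 24.3% lower (edgeR, adjusted p under 0.05, no block). Of the 723 genes higher in meninges that were also tested there, 519 were higher in parenchyma than in blood, 71.8%, and 67 were lower, 9.27%. Their median log2 fold change of parenchyma over blood was 0.82, against 0.01 over all genes. For the genes more than 2-fold higher, the median was 2.46, with 116 of 163 higher, 71.2%, and 10 lower, 6.13%. The other 12 of the 175 had too few counts to be tested in blood and parenchyma. Among genes higher by up to 2-fold the share higher in parenchyma was much the same, 72.0%, with 10.2% lower. Of the 13 genes tested there that were more than 8-fold higher in meninges, 10 were higher in parenchyma and 3 were lower.

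The genes lower in meninges leaned the other way, and less far. Of 642 tested, 258 were lower in parenchyma than in blood, 40.2%, and 135 were higher, 21.0%, with a median log2 fold change of -0.12. In the highest abundance class 40.4% were lower in parenchyma, beside 24.7% of all genes of that class, and 26.2% were higher, beside 31.6%. For genes higher in meninges, 58.0% were higher in parenchyma in the lowest class, beside 16.6% of all its genes, and 82.0% in the highest, beside 31.6%. All 3 parenchyma libraries lay above all 3 blood libraries for 506 of the 723 genes higher in meninges, 70.0%, beside 24.7% of all genes tested in both comparisons. All 3 lay below for 304 of the 642 genes lower in meninges, 47.4%, beside 34.2%.

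The readout was repeated for genes chosen without the block and without each pair. Among genes called higher without the block, 143 of 168 were higher in parenchyma, 85.1%, and the shares were 72.8%, 65.7% and 74.0% for genes called without pair 1, 2 or 3. Among genes called lower, the shares lower in parenchyma were 39.5% without the block and 39.1%, 38.9% and 39.4% without pair 1, 2 or 3. The shares of these genes higher in parenchyma were 28.9% without the block, 11 of 38 genes, and 24.0%, 17.8% and 21.2% without pair 1, 2 or 3. Of all genes, 24.6% were higher in parenchyma and 24.3% lower. On only 38 genes without the block, the 28.9% higher lay near the first share, and the 39.5% lower lay above the second. With the number as a block between parenchyma and blood as well, 74.1% of the genes higher in meninges were higher in parenchyma, beside 26.9% of all genes. Of the genes lower in meninges, 42.1% were then lower in parenchyma, beside 26.3% of all genes, and 28.8% were higher, beside 26.9%.

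**Figure D4:**
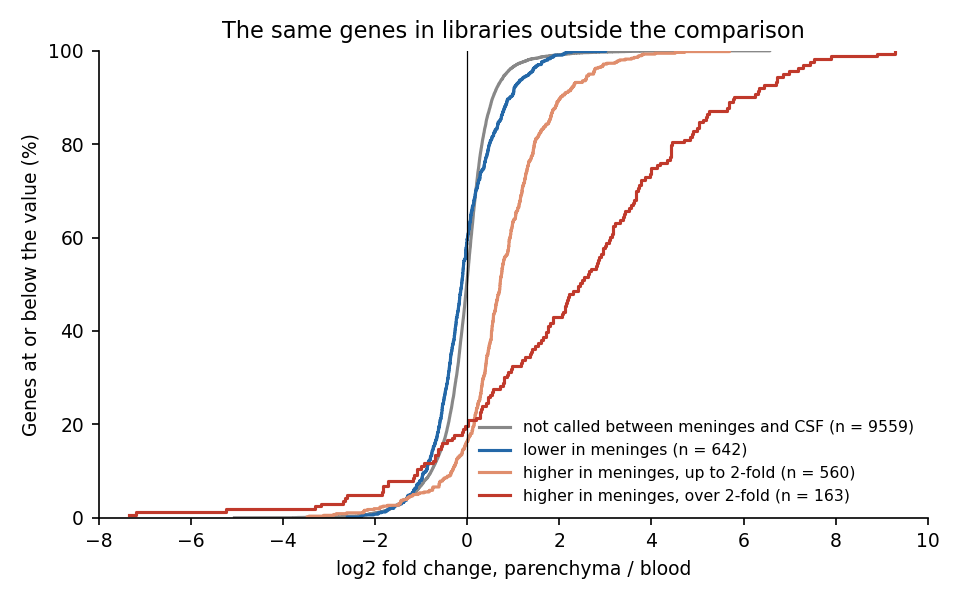
Lines give the percentage of genes at or below each log2 fold change of parenchyma over blood, for genes grouped by their call between meninges and CSF. The line for genes more than 2-fold higher in meninges lies far to the right, with a median of 2.46; the line for genes higher by up to 2-fold has a median of 0.71, and that for genes lower in meninges lies slightly to the left, with a median of -0.12.

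Blood libraries varied among themselves in the level of these genes. Together the 175 accounted for 0.393% ± 0.208 (SD, n = 3) of blood gene counts, from 0.248% to 0.631%, and 1.18% ± 0.0975 in parenchyma, from 1.10% to 1.29%. Their median level was 1.09 to 2.64 CPM in the blood libraries and 4.82 to 6.85 CPM in the parenchyma libraries. The highest blood median was that of replicate 3, the library with the largest share of entries aligned to several places, 65.2%; the part of that share in the level was not tested. The 643 genes lower in meninges took 10.4% ± 0.804 of gene counts in blood and 9.88% ± 0.416 in parenchyma, and these overlapped. Meninges libraries, at 10.3% to 11.7%, overlapped blood libraries, at 9.96% to 11.4%. CSF libraries lay above all of these, at 12.7% to 14.3%. As the genes were chosen for being higher in CSF than in meninges, only the blood and parenchyma shares are free of that choice.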

How the data were processed

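RNA of sorted T cells was sequenced from Illumina TruSeq messenger RNA libraries, per the labels' protocols. The deposited files hold raw counts per Ensembl gene, not normalized, for 26405 identifiers. STAR, HTSeq, SAMtools, DESeq2 and CASAVA 1.8.2 are named, per the submitters' processing notes, with no role. No source used here gives the genome build, annotation or use of strand, so reads of overlapping antisense genes may be mixed. Reads aligned to several places were not counted, which under-counts genes with near-identical copies. The 5 summary lines of each file were kept out of totals and tests; shares of entries are over genes and summary lines together.

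The 6 CSF and meninges libraries were fitted in R 4.3.3 with edgeR 4.0.16 (filterByExpr, TMM scaling, quasi-likelihood test), with compartment and library number as terms. The 11026 genes kept held at least 99.8% of gene counts, and TMM factors ran from 0.979 to 1.02. P-values were adjusted by Benjamini-Hochberg over all genes tested. Standard errors derived from the F statistic, so they too use the spread shared between genes. The numbers were taken to pair the samples because each same-number correlation was over 0.1. Blood and parenchyma libraries had a fit of their own over 11296 genes, without the block. CPM uses total gene counts; log2 CPM uses a prior count of 2. The functions were tested on data simulated from the fit with the block, with changes placed only in well-counted genes. At an adjusted p under 0.05, 6.16% of calls there were false, and 97.0% of 1.5-fold changes were recovered. Since the block was built in and rare transcripts were not changed, that test covers neither the choice of the block nor rises of weak genes.

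Printed identifiers are the 2 largest rises and 2 largest falls among genes called, with at least 10 CPM on average in the higher group and the same direction in all 3 pairs. The 27 gene lists planned need names and could not be used: the reference table has an Ensembl identifier in 0 of 47357 rows. The comparison and the lists were chosen with earlier results of these data known. Alternatives were another set of libraries, no block, DESeq2 1.42.0, other scalings and filters, left-out libraries, stricter thresholds and, added after seeing the data, thinning and refits of the printed genes between parenchyma and blood.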

Additional observations from a re-analysis of the deposited data

How the results depend on the processing

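None of the 4 printed genes reversed direction under the alternatives run. Genes higher and lower in meninges numbered 735 and 643 with the replicate block and 169 and 38 without it. They were 604 and 442 in a fit of all 12 libraries with the block and 227 and 62 in that fit without it. DESeq2 with the block called 410 and 372, and the fit without the filter on low counts 905 and 1063, where genes lower made up more of the calls. At an adjusted p under 0.01 they were 372 and 256, and beyond 1.5-fold 119 and 3; fewer calls follow there from the stricter threshold. Without 1 of the 3 pairs the counts ran from 487 to 1251 higher and from 359 to 1246 lower. Without the block and with 1 library left out they ran from 53 to 199 higher and from 1 to 71 lower, with 53 higher without meninges replicate 1 and 1 lower without meninges replicate 3. Of the other changes the cause was not tested. Of the 735 and 643 genes, 553 and 432 were also called in the fit of all 12 libraries with the block. The count of 5529 genes between parenchyma and blood stayed within 1.5 times under all 8 alternatives run, from 3824 to 6023, the latter with the block. The 2 rises passed the threshold under all 17 alternatives that gave a value; ENSRNOG00000001216 did not under 8 and ENSRNOG00000008194 did not under 4, all of them without the block. Alternatives for gene lists were not run, as the identifiers have no names.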
